A study of Homo sapiens with 12 samples.

Results

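Activins are secreted dimers of inhibin beta chains, and 9 genes of their ligands, soluble antagonists and receptors were followed here: INHBA, INHBB and INHBE (3 beta subunits), FST and FSTL3 (antagonists), ACVR1 and ACVR1B (type I receptors), and ACVR2A and ACVR2B (type II receptors). INHBA and INHBE were selected on measured values, for the largest opposite interactions between knockdown and gemcitabine, so their values are given as a description with no test. The other members were chosen as genes of the activin pathway. Of the 9, 7 were found in all 4 of the authors' deposited tables, FST in 1 and INHBB in none, out of 23375 genes listed in at least 1 table. A gene with a low count is missing from a table (the lowest mean normalized count in any table was between 2.09 and 2.19), so INHBB is not listed rather than measured at 0.

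The cells were SUM159, an established triple-negative breast cancer line, and all 12 libraries were made from it. They form 4 groups of 3: cells with a control hairpin (shCTRL) or one targeting the zinc finger transcription factor E4F1 (shE4F1), each either untreated or exposed to gemcitabine, a deoxycytidine analogue that stalls DNA replication, at 140 nM for 24 h. Neither the number of hairpins behind shE4F1 nor the origin of the libraries from separate cultures is given in the labels, so the p-values reflect only how much these libraries vary, and that variation may be technical. The 4 tables compare shE4F1 with shCTRL untreated (the untreated knockdown table), shE4F1 with shCTRL under gemcitabine (the gemcitabine knockdown table), gemcitabine with no treatment in shCTRL cells (the drug table), and shE4F1 under gemcitabine with untreated shCTRL (the combined table).

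An activin dimer binds a type II receptor kinase, ACVR2A or ACVR2B, which then phosphorylates a type I receptor, classically ACVR1B (ALK4), and the active complex phosphorylates SMAD2 and SMAD3. Follistatin (FST) and follistatin-like 3 (FSTL3) bind activins and keep them from the receptors. ACVR1 (ALK2) is a type I receptor best known for BMP signalling through SMAD1 and SMAD5, and in tumour cells activin A, the INHBA homodimer, is a secreted cytokine that also acts on neighbouring cells.

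Because the largest gemcitabine effect among the members was that of INHBA, the sequence before its annotated start is shown first. It is the RefSeq promoter of INHBA on the minus strand of GRCh38.p14, at chr7:41703109-41703340, written 5′ to 3′. The window of 250 bases before the start was shortened by the 18 bases next to the start, which are annotated as exon, and it lies inside the span of INHBA in GENCODE 29. Capitals mark a match to TGANGTCA, a pattern of the kind bound by ATF and CREB family factors, at position -105 from the RefSeq start.

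INHBA: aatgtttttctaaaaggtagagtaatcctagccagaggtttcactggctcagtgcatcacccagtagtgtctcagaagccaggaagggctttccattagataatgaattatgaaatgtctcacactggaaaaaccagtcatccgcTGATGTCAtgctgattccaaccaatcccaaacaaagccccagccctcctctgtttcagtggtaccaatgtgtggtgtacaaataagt

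TGANGTCA was searched on both strands and was chosen after the sequence had been seen. It is held by 6.87% of the 35116 RefSeq promoters over the same 250 bases, and among the 11 promoters of the 8 members in the table it was found in that of INHBA alone. TGACGT, the core of the site for which E4F1 is known, is held by 7.10% of promoters and by none of these 11 windows. TGANTCA, the AP-1 pattern, is held by 6.57% and was found in FST and in 1 of the 3 ACVR1 promoters. A match is a stretch of letters, and no binding was measured here.

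INHBA (ENSG00000122641, chr7:41667168-41705834, minus strand, GRCh38) encodes the beta A chain of activin A and of inhibin A. The deposited tables hold no value per library, so the level of each group was computed from the mean and the fold change in the authors' deposited tables. These implied levels carry no SD. The tables were normalized separately, so levels from different tables are on scales that differ somewhat and were set side by side as a description. The levels also rest on the deposited fold changes, which for low genes are moderated, that is made smaller, as far as the values show. The implied levels of a low gene within a table may therefore lie too close together. No table holds both shE4F1 groups, so their levels always come from different tables. For INHBA the implied mean normalized count in untreated shCTRL cells was 5.21 to 9.24 in the 3 authors' deposited tables that contain this group. In proportion this range was wider than those of FSTL3 (3525 to 4086), ACVR1 (1595 to 1843) and ACVR1B (822 to 947) in the same group. The part of the moderation in the INHBA range was not tested. In shCTRL cells with gemcitabine the implied count of INHBA was 351 to 354, in untreated shE4F1 cells 27.8, and in shE4F1 cells with gemcitabine 104 to 120. The untreated control cells were thus the lowest of the 4 groups and the treated control cells the highest, with both shE4F1 groups between them.

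In the authors' deposited tables the difference for INHBA was 5.26 ± 0.33 (log2 ± SE) for gemcitabine in shCTRL cells, a 38.3-fold higher level. The knockdown in untreated cells went with a log2 difference of 2.41 ± 0.46 in the authors' deposited table, or 5.33-fold higher. Under gemcitabine the same knockdown went with a difference of -1.55 ± 0.20 in the authors' deposited table, or 2.94-fold lower. In the combined table deposited by the authors, shE4F1 with gemcitabine stood 4.07 ± 0.39 above untreated shCTRL. The untreated knockdown, drug and combined tables share the untreated shCTRL libraries, in which INHBA was near the lower limit of listing, so an error in that level enters all of these differences. With the untreated knockdown effect subtracted from that under gemcitabine, INHBA stood at -3.97 ± 0.50 (95% interval -4.96 to -2.98). This was the lowest of 20923 genes, followed by ARL14 at -3.68. The mean normalized count of INHBA was 16.5 in the authors' deposited untreated knockdown table, where an SE of 0.46 was close to the median of 0.45 for genes of similar mean (within a factor of 2).

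INHBE (ENSG00000139269, chr12:57452323-57459280, plus strand, GRCh38) encodes the beta E chain, made mainly by the liver and known as a gene that the integrated stress response induces. Its implied mean normalized count, from the authors' deposited tables, was 538 to 677 in untreated shCTRL cells and 38.2 in untreated shE4F1 cells. With gemcitabine it was 1012 to 1021 in shCTRL cells and 471 to 542 in shE4F1 cells. Here the untreated knockdown group was the one that stood apart, below the other 3 groups.

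The untreated knockdown difference of INHBE was -3.82 ± 0.30 (log2 ± SE) in the authors' deposited table, a 14.1-fold lower level. Under gemcitabine it was -0.90 ± 0.40 in the authors' deposited table, 1.87-fold lower. Gemcitabine in shCTRL cells went with 0.59 ± 0.37 (95% interval -0.13 to 1.32) in the authors' deposited table, and the combined difference there was -0.27 ± 0.44. The knockdown effect of INHBE with the drug less the effect without it was 2.92 ± 0.50 (95% interval 1.94 to 3.90). DRD5 alone, at 3.10, was higher among the 20923 genes, and CHAC1, a stress response gene, followed at 2.88. Of the 12578 genes with a mean normalized count of at least 50 in both knockdown tables, INHBE had the highest value. Set against each other in the plot of both knockdown effects, INHBA lies at the lower right and INHBE at the lower left, both away from the line of equal effects, near which the other members lie.

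**Figure D1:**
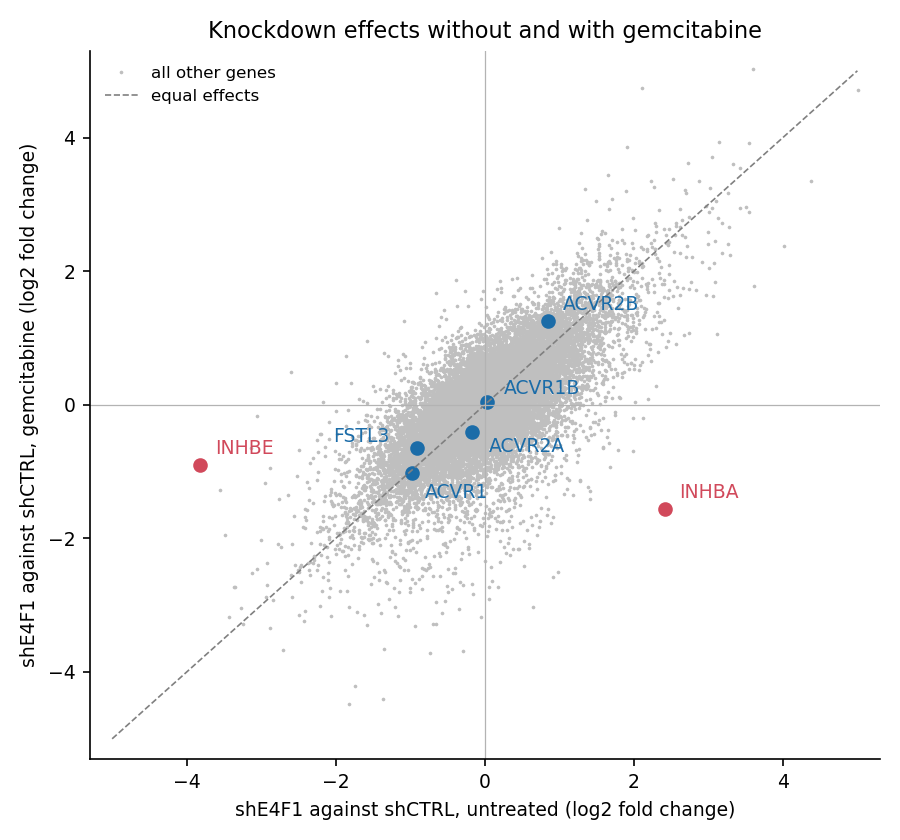
Knockdown effect on each gene in untreated cells (x axis, log2 fold change of shE4F1 against shCTRL) and under gemcitabine (y axis, the same), from the authors' deposited tables. Grey points are all other genes with a p-value in both knockdown tables, and the dashed line marks equal effects. INHBA lies at 2.41 and -1.55 and INHBE at -3.82 and -0.90, while FSTL3, ACVR1, ACVR1B, ACVR2A and ACVR2B lie close to the dashed line.

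INHBE was measured less precisely than genes of its level. In the authors' deposited table of the knockdown under gemcitabine its SE of 0.40 was 3.18 times the median SE (0.13) of the 4255 genes of similar mean, and larger than that of 99.9% of them. In the authors' deposited drug and combined tables the ratio was 2.25 and 2.37, and in the untreated knockdown table its SE was larger than that of 97.5% of genes of similar mean. The ratio for INHBA was between 1.03 and 1.48 in the authors' deposited tables, and its SE was larger than that of 98.0% of genes of similar mean in the drug table and 94.1% in the combined table. For the other members the ratio was between 0.85 and 1.11. At a given mean the DESeq2 SE grows with the estimated spread between libraries, and the values of single libraries were not analysed here.

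**Figure D2:**
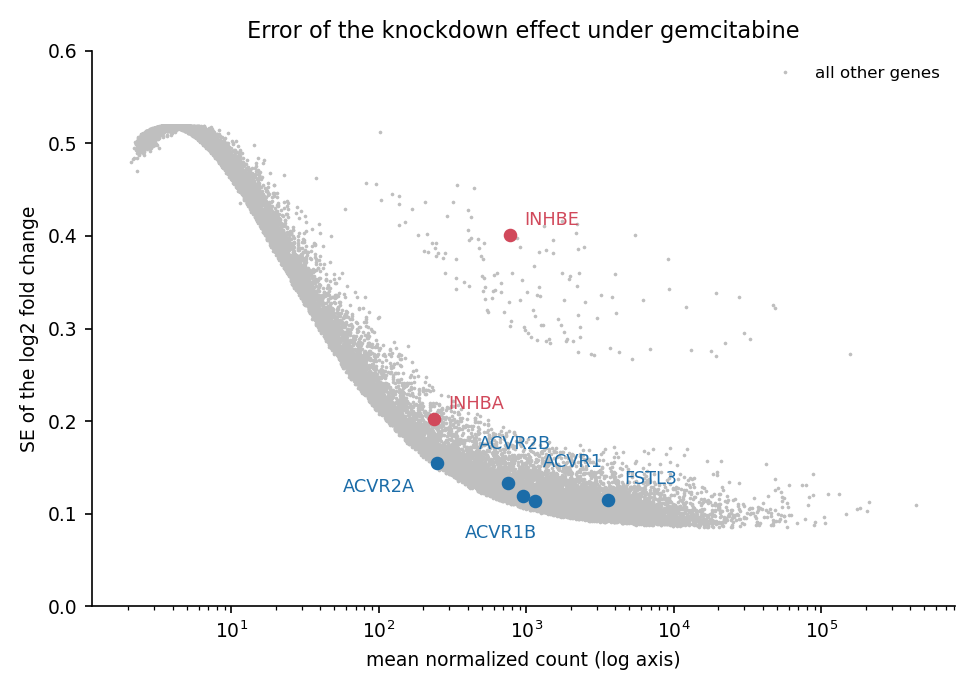
SE of the log2 fold change (y axis) against the mean normalized count (x axis, log scale) in the authors' deposited table of the knockdown under gemcitabine. The 20923 genes shown are those with a p-value in both knockdown tables, so FST is left out. INHBE, with an SE of 0.40, lies in a sparse upper cloud of genes, and INHBA, FSTL3 and the receptors lie within the main band.

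Both antagonists were listed, at very different levels. FST (ENSG00000134363, chr5:53480409-53487134, plus strand) appeared in the authors' deposited gemcitabine knockdown table alone, with a mean normalized count of 2.90 and a log2 difference of 0.79 ± 0.51 (DESeq2 adjusted p 0.228). At that count a change in FST was not detectable. FSTL3 (ENSG00000070404, chr19:676365-683399, plus strand) had an implied level in the authors' deposited tables of 3525 to 4086 in untreated shCTRL cells and 1871 in untreated shE4F1 cells. With gemcitabine it was 4350 to 4396 in shCTRL and 2573 to 2774 in shE4F1 cells.

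FSTL3 fell with the knockdown in both conditions. In the authors' deposited tables (DESeq2, Benjamini-Hochberg adjusted) the log2 change was -0.91 ± 0.16 (SE) untreated, with an adjusted p of 6.63e-08. Under gemcitabine it was -0.65 ± 0.11, with an adjusted p of 9.67e-08 in the authors' deposited table. Gemcitabine in shCTRL cells gave 0.11 ± 0.17 (95% interval -0.22 to 0.43, adjusted p 0.696) in the authors' deposited table, and the combined change was -0.55 ± 0.16 (adjusted p 0.00304). The knockdown effects on FSTL3 under gemcitabine and without it differed by 0.26 ± 0.19 (95% interval -0.11 to 0.64, adjusted p 0.558 in a two-sided normal test).

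The type I receptors parted. ACVR1 (ENSG00000115170, chr2:157736444-157875862, minus strand) had an implied level of 1595 to 1843 in untreated shCTRL and 812 in untreated shE4F1 cells in the authors' deposited tables. With gemcitabine it was 1528 to 1553 in shCTRL and 702 to 752 in shE4F1 cells. Both shE4F1 groups lay below both shCTRL groups. ACVR1 fell by 0.97 ± 0.15 (log2 ± SE) in the authors' deposited untreated knockdown table (DESeq2 adjusted p 4.83e-09), a 1.96-fold lower level. Under gemcitabine it fell by 1.02 ± 0.11 in the authors' deposited table (adjusted p 6.26e-18), and the interaction was -0.05 ± 0.19 (95% interval -0.43 to 0.33). For gemcitabine in shCTRL cells the value was -0.25 ± 0.15 (adjusted p 0.215), and in the combined table ACVR1 fell by 1.28 ± 0.16 (adjusted p 1.66e-13), both from the authors' deposited tables.

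ACVR1B (ENSG00000135503, chr12:51951667-51997078, plus strand), the activin type I receptor, was the flattest member. Its implied level lay between 822 and 967 in every group of the authors' deposited tables, and the groups overlapped between tables. The log2 differences in the authors' deposited tables were 0.03 ± 0.14 for the untreated knockdown (DESeq2 adjusted p 0.890), 0.04 ± 0.12 under gemcitabine (0.835), 0.00 ± 0.14 for gemcitabine (0.987) and 0.02 ± 0.16 for the combination (0.935). Their 95% intervals all lay between -0.29 and 0.34.

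The type II receptors also parted. ACVR2B (ENSG00000114739, chr3:38453851-38493142, plus strand) had an implied level of 577 to 655 in untreated shCTRL cells and 444 to 448 with gemcitabine in the authors' deposited tables. In shE4F1 cells it was 1043 untreated and 985 to 1064 with gemcitabine, above both shCTRL groups. ACVR2B rose by 0.85 ± 0.16 (log2 ± SE) with the knockdown in untreated cells in the authors' deposited table, with a DESeq2 adjusted p of 5.10e-07. Under gemcitabine it rose by 1.26 ± 0.13, or 2.39-fold, in the authors' deposited table (adjusted p 9.14e-20). ACVR2B was the only tested member that gemcitabine changed in shCTRL cells, where it fell by 0.55 ± 0.17 in the authors' deposited table (adjusted p 0.00781). It rose by 0.67 ± 0.17 in the authors' deposited combined table (adjusted p 0.000408). The knockdown effects on ACVR2B under gemcitabine and without it differed by 0.41 ± 0.21, with an unadjusted p of 0.0479 and an adjusted p of 0.294 in a two-sided normal test.

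ACVR2B-AS1 lies on the opposite strand within the span of ACVR2B with no shared exon. It changed by 1.30 ± 0.29 (adjusted p 4.42e-05) with the knockdown under gemcitabine and by -0.73 ± 0.29 (adjusted p 0.0426) with gemcitabine in the authors' deposited tables. Whether the counting used the strand is not given in the sources used here, so reads of the introns of one and the exons of the other cannot be told apart.

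ACVR2A (ENSG00000121989, chr2:147844517-147930826, plus strand) had an implied level of 267 to 307 in untreated shCTRL cells and 282 to 287 with gemcitabine in the authors' deposited tables. In shE4F1 cells it was 237 untreated and 199 to 214 with gemcitabine. ACVR2A fell by 0.40 ± 0.16 (log2 ± SE) with the knockdown under gemcitabine in the authors' deposited table (DESeq2 adjusted p 0.0262). The same call was not made when this effect was computed as the combined table minus the drug table (-0.42 ± 0.25, adjusted p 0.297), a route that counts the shared untreated libraries in both SEs. In untreated cells the value was -0.17 ± 0.18 (95% interval -0.52 to 0.19, adjusted p 0.520) in the authors' deposited table, and for gemcitabine in shCTRL cells -0.10 ± 0.17 (adjusted p 0.718). It fell by 0.52 ± 0.19 in the authors' deposited combined table (adjusted p 0.0241). The sum of the gemcitabine knockdown and drug tables, which counts the shared treated shCTRL libraries in both SEs, gave -0.50, with an adjusted p of 0.109. Exons of ACVR2A overlap exons of ORC4 on the opposite strand, and ORC4 had the larger mean (1659 to 2102) in the authors' deposited tables. ORC4 fell by 0.69 ± 0.14 with gemcitabine (adjusted p 2.68e-05) and by 0.58 ± 0.16 in the combined table (adjusted p 0.00115). With the knockdown ORC4 stood at 0.13 ± 0.11 under gemcitabine (adjusted p 0.350) and at -0.23 ± 0.14 untreated (adjusted p 0.202). The part of ORC4 in the ACVR2A values was not tested.

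**Figure D3:**
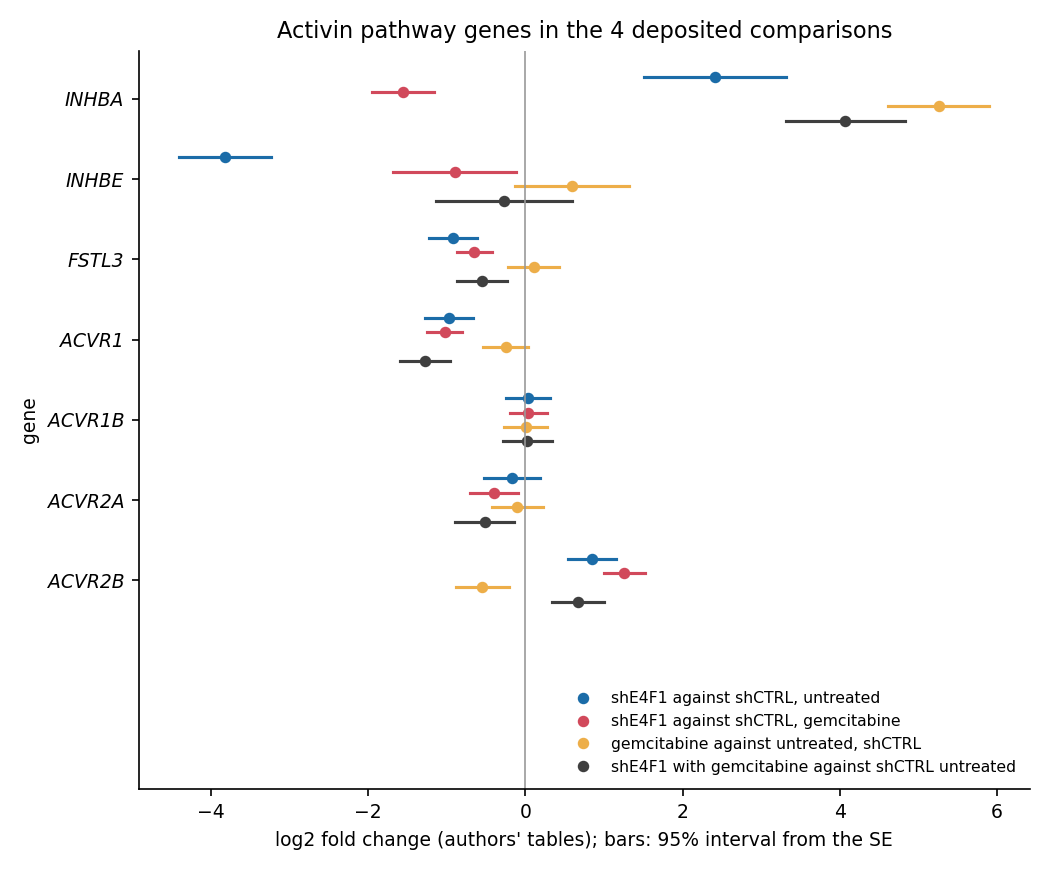
Log2 fold change (x axis) of the 7 members listed in all 4 of the authors' deposited tables (y axis), 1 point per table, with bars for the 95% interval from the SE. INHBA and INHBE span both sides of 0 between tables, FSTL3 and ACVR1 are lower and ACVR2B higher in all 3 comparisons that contain the knockdown, and the 4 points of ACVR1B lie at 0.

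Counted together, 3 of the 5 tested members (FSTL3, ACVR1, ACVR1B, ACVR2A and ACVR2B) were called in the authors' deposited untreated knockdown table at an adjusted p under 0.05, 1 higher and 2 lower. Of all 19472 genes tested there 36.7% were called (17.5% higher and 19.3% lower), and of those with a mean normalized count of at least 50, as all 5 members had, 48.7%. Under gemcitabine 4 of the 5 were called, 1 higher and 3 lower, beside 41% of 22433 genes (20.3% higher, 20.8% lower, and 59.3% at a mean of at least 50) in the authors' deposited table. Gemcitabine in shCTRL cells changed 1 of the 5, ACVR2B, beside 28% of 20002 genes (14.5% higher, 13.5% lower, 36% at a mean of at least 50). In the combined comparison of the authors' deposited table, 4 of the 5 were called, 1 higher and 3 lower, beside 32.2% of 19724 genes (15.8% higher, 16.3% lower, 42.2% at a mean of at least 50). With so many genes called in each table, these counts of 5 members are not far from the background. The median log2 difference of the 5 was -0.17, -0.40, -0.10 and -0.52 in these tables in turn, and that of all genes between -0.02 and 0.00.

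Gemcitabine in shE4F1 cells has no table of its own and was derived as the combined table minus the untreated knockdown table. The shared untreated shCTRL libraries enter both SEs, so the SE is too large and few genes could be called. INHBE differed by 3.54 ± 0.53 and INHBA by 1.66 ± 0.60 (log2 ± SE) in this comparison. None of the 5 tested members was called in the two-sided normal test, and 0 had an unadjusted p under 0.05. Of all 21080 genes 1.11% were called (0.925% higher, 0.185% lower, 1.71% at a mean of at least 50). The values for the 5 ran from -0.35 ± 0.26 for ACVR2A to 0.36 ± 0.22 for FSTL3.

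For the interaction, that is the knockdown effect with gemcitabine less the one without it, none of the 5 tested members was called and 1 (ACVR2B) had an unadjusted p under 0.05. Of 20923 genes 5.43% were called (2.81% higher, 2.63% lower, 7.68% at a mean of at least 50). The knockdown tables share no library, so their variances add. The log2 fold changes of low genes are moderated towards 0 as far as the values show, possibly to a different degree in each table. The derived test does not correct for this. The 95% intervals of the 5 interactions reached from -0.70 (ACVR2A) to 0.81 (ACVR2B) on the log2 scale.

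**Figure D4:**
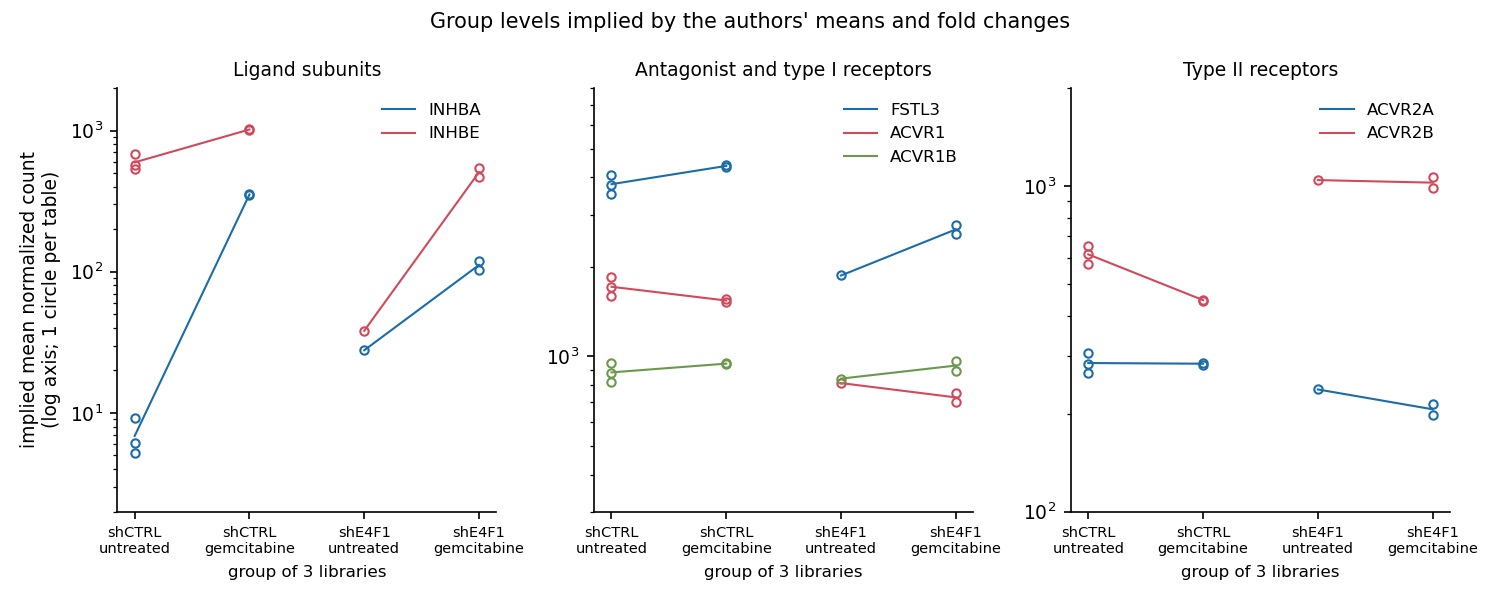
Mean normalized count of each group (y axis, log scale) implied by the mean and fold change of the authors' deposited tables, 1 circle per table that contains the group. Lines join the untreated and treated group of one hairpin, which for shE4F1 come from different tables that were normalized separately. INHBA is lowest in untreated shCTRL cells (5.21 to 9.24), INHBE in untreated shE4F1 cells (38.2), and ACVR2B is above its shCTRL levels in both shE4F1 groups.

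Levels were compared between genes per kb of merged exon length in untreated shCTRL cells, using means of the authors' deposited tables. FSTL3 had the highest implied count per kb (1149 to 1332), followed by ACVR1 (400 to 462), INHBE (178 to 225) and ACVR1B (144 to 166). ACVR2A (39.4 to 45.4) and ACVR2B (36.7 to 41.6) overlapped between tables, and INHBA was lowest at 0.63 to 1.11. In shCTRL cells with gemcitabine INHBA reached 42.3 to 42.6 per kb, which overlapped the range of ACVR2A there (41.7 to 42.4). INHBE in the untreated shE4F1 group stood at 12.7 per kb, below ACVR2A (35.0) and ACVR2B (66.2), computed from the authors' deposited table.

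Genes whose pattern was most like that of INHBA were sought among 12448 genes with a mean normalized count of at least 50 in every table. The measure was the Euclidean distance over 3 log2 differences from untreated shCTRL (untreated shE4F1, shCTRL with gemcitabine, shE4F1 with gemcitabine), a description that carries no test. The nearest to INHBA was TNFAIP3, an NF-kB inhibitor, at a distance of 1.95, with 1.41, 4.08 and 2.88 in the authors' deposited tables. C1QTNF1-AS1 (2.81), GBP4 (3.28), ADM (3.30) and GCSAM (3.33) followed. With the knockdown under gemcitabine, where INHBA stood at -1.55, TNFAIP3 stood at -1.29 and ADM at -1.24. C1QTNF1-AS1 stood at 0.11, GCSAM at 0.92 and GBP4 at 1.39, so they were not lower there. The nearest to INHBE was GDF15, another stress-induced ligand of the wider family, at 1.33, with -3.06, 0.50 and -1.37 in the authors' deposited tables. TSLP (1.37), AL162759.1 (1.64), ERFE (1.68) and CLDN1 (1.75) came next. Their interactions were 0.60 for GDF15, 0.69 for TSLP, 0.50 for AL162759.1, 1.37 for ERFE and -0.04 for CLDN1. INHBE was selected on its interaction and had the highest among genes with a mean of at least 50. A smaller value for each of these genes was therefore certain.

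The other genes of the pathway were taken from 6 lists of 56 genes. Of the 44 with an adjusted p in the authors' deposited untreated knockdown table, 17 were higher and 5 lower, and their median was 0.28. Under gemcitabine 22 were higher and 7 lower of 47 (median 0.35) in the authors' deposited table. Gemcitabine in shCTRL cells gave the reverse split, 4 higher and 14 lower of 45 (median -0.20), and the combined comparison 13 higher and 8 lower of 45 (median 0.09). The shares called were thus near those of all genes with a mean normalized count of at least 50, which were 48.7%, 59.3%, 36% and 42.2% in these tables in turn. These tables share control libraries, so the counts are given side by side with no test between them.

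Among other ligands and binding proteins, MSTN (myostatin, an activin-like ligand of the same type II receptors) fell with the knockdown, by 2.19 ± 0.24 (log2 ± SE) untreated and 2.79 ± 0.21 under gemcitabine, in the authors' deposited tables (DESeq2 adjusted p 4.27e-18 and 1.89e-37). GDF11, its closest relative, rose by 0.86 ± 0.17 and 0.79 ± 0.12 (adjusted p 4.05e-06 and 3.31e-10) in the authors' deposited tables. These were the 2 called of the 4 and 5 genes of this list that had an adjusted p in the knockdown tables. INHA, the alpha chain that turns a beta chain into an inhibin, had a mean normalized count of 23.9 and a difference of 0.11 ± 0.38 (95% interval -0.63 to 0.86) in the authors' deposited untreated knockdown table. With gemcitabine in shCTRL cells MSTN rose by 0.96 ± 0.18 (adjusted p 2.53e-06) and FSTL1 fell by 0.57 ± 0.16 (adjusted p 0.00212) in the authors' deposited table.

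Receptors and co-receptors other than the members had 5 genes called higher and 1 lower of 9 with the untreated knockdown (median 1.39), and 5 higher and 1 lower of 10 under gemcitabine (median 0.46), in the authors' deposited tables. The shares of all genes called higher in these tables were 17.5% and 20.3%. The type I receptor ACVR1C (ALK7) rose by 2.66 ± 0.40 and 1.74 ± 0.31 (DESeq2 adjusted p 7.29e-10 and 9.81e-08) in the authors' deposited tables. Its mean normalized count was low in both, at 29.2 untreated and 46.3 under gemcitabine. TGFBR2, the TGF-beta type II receptor, rose by 1.59 ± 0.13 and 1.40 ± 0.09 (adjusted p 1.85e-32 and 6.55e-48), and TGFBR3 (betaglycan), a co-receptor for inhibin and TGF-beta, by 1.43 ± 0.17 and 1.63 ± 0.10 (adjusted p 2.09e-15 and 4.47e-56). BMPR2, a BMP type II receptor that activins can also use, rose by 1.40 ± 0.14 and 1.32 ± 0.11 (adjusted p 1.11e-21 and 2.79e-32) in the authors' deposited tables. BMPR1A was the member of this list called lower, by 0.57 ± 0.13 and 0.35 ± 0.11 (adjusted p 0.000141 and 0.00346) in the authors' deposited tables.

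Of the intracellular components (SMADs and their regulators), 4 rose and 1 fell of 16 untreated, and 9 rose and 3 fell of 17 under gemcitabine, in the authors' deposited tables. Of all genes 36.7% and 41% were called in these tables (48.7% and 59.3% at a mean of at least 50), so these counts are not far from the background. The inhibitory SMAD6 rose by 1.68 ± 0.22 and 1.19 ± 0.17 (DESeq2 adjusted p 6.62e-13 and 1.24e-11), and SMAD9, a BMP receptor SMAD, fell by 0.62 ± 0.23 and 1.29 ± 0.15 (adjusted p 0.0213 and 5.85e-16) in the authors' deposited tables. Gemcitabine in shCTRL cells raised 1 (SMAD3, by 0.75 ± 0.18, adjusted p 0.000264) and lowered 6 of 16 in the authors' deposited drug table, beside 28% of all genes called (36% at a mean of at least 50). The largest falls there were SKI, a SMAD co-repressor, by 1.15 ± 0.16 (adjusted p 7.10e-12) and ZFYVE9 (SARA), which brings SMADs to receptors, by 1.03 ± 0.16 (adjusted p 1.44e-09).

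Genes that activin and TGF-beta commonly induce through SMAD2 and SMAD3 split in direction. In untreated cells 5 were higher and 2 lower of 10, and under gemcitabine 4 higher and 2 lower, in the authors' deposited tables. Of all genes with a mean of at least 50, 48.7% and 59.3% were called in these tables, so these counts are not far from the background. TAGLN, an actin-binding protein, rose by 1.58 ± 0.21 and 1.00 ± 0.17 (DESeq2 adjusted p 1.76e-12 and 6.10e-08), and TGFBI, a matrix protein, by 1.24 ± 0.15 and 1.68 ± 0.12 (adjusted p 1.08e-14 and 9.68e-42), in the authors' deposited tables. COL1A1, a collagen chain, fell by 1.51 ± 0.21 and 1.90 ± 0.17 (adjusted p 1.31e-11 and 2.56e-28), in the authors' deposited tables. In the drug table, where INHBA was 38.3-fold higher, 0 of the 10 were higher and 2 were lower, among them TGFBI by 0.90 ± 0.17 (adjusted p 3.06e-06), per the authors' deposited table. At an unadjusted p under 0.05 the count over both directions was 3. Over all genes of this comparison 28% were called (14.5% higher and 13.5% lower), so these 2 of 10 are near the background.

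Of the 4 genes commonly induced through SMAD1 and SMAD5, 3 rose with the knockdown in each condition in the authors' deposited tables: ID1, ID2 and SMAD6. With 48.7% and 59.3% of genes with a mean of at least 50 called in these tables, a count of 3 in 4 genes is no result about the list. ID1 rose by 0.65 ± 0.25 untreated and 1.51 ± 0.42 under gemcitabine (adjusted p 0.0278 and 0.00119), and fell by 1.67 ± 0.22 with gemcitabine in shCTRL cells (adjusted p 5.07e-13), in the authors' deposited tables. Of the 4 proprotein convertases, which cleave the precursors of activins, 0 changed in untreated cells (0 also at an unadjusted p under 0.05). Under gemcitabine FURIN rose by 0.35 ± 0.13 (adjusted p 0.0180) and PCSK6 by 0.68 ± 0.18 (adjusted p 0.000975) in the authors' deposited table. Neither call was made by the combined table minus the drug table (adjusted p 0.487 and 0.161). That route counts the shared untreated libraries in both SEs, so losing a call there says little about the direct values.

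**Figure D5:**
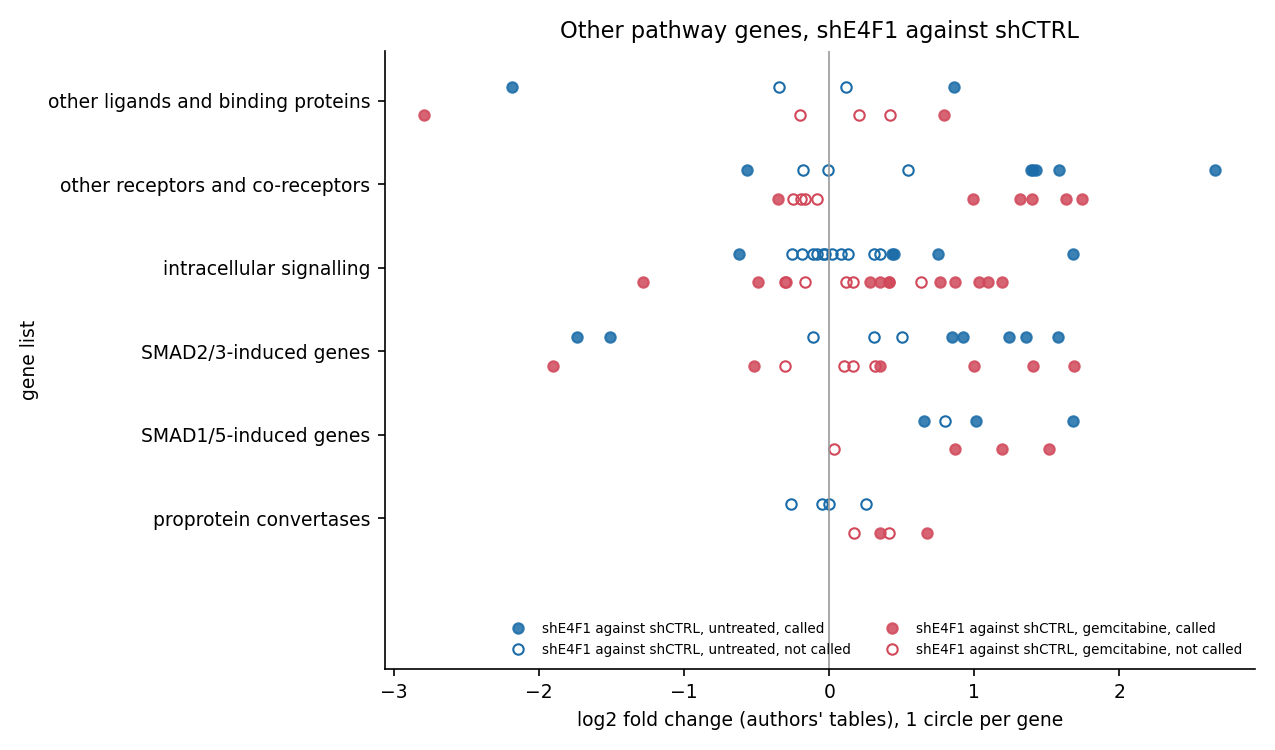
Log2 fold change (x axis) of the other pathway genes by list (y axis) with the knockdown, untreated (blue) and under gemcitabine (red), from the authors' deposited tables. Filled circles were called at an adjusted p under 0.05. In each condition 5 receptors were called to the right of 0 and 1 to the left, MSTN alone lies beyond -2, and the genes induced through SMAD2 and SMAD3 lie on both sides.

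In the derived comparisons few of these genes were called. With gemcitabine in shE4F1 cells 2 of 46 fell, TGFBR2 by 0.70 ± 0.19 (adjusted p 0.0260) and CTGF by 1.13 ± 0.31 (adjusted p 0.0257, both in a two-sided normal test). For the interaction 7 of 46 were called, 4 higher and 3 lower, beside 5.43% of all genes and 7.68% of those with a mean of at least 50. They include BAMBI, a pseudoreceptor, with a difference of the knockdown effect of -1.47 ± 0.44 (adjusted p 0.0202), and ZFYVE9, at 0.95 ± 0.19 (adjusted p 5.69e-05). Neither call was made when the effect under gemcitabine was taken from the combined and drug tables (adjusted p 0.389 and 0.0843). That route has larger SEs by construction, because the tables it joins share libraries.

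The labels were checked on E4F1 itself, which fell by 0.99 ± 0.26 with the hairpin in untreated cells and 0.91 ± 0.16 under gemcitabine in the authors' deposited tables (DESeq2 adjusted p 0.000778 and 1.47e-07). Mesenchymal markers were high (VIM mean 53240 to 70720), whereas CDH1 stood at 5.21 to 9.23 and EPCAM and PGR were not listed, per the authors' deposited tables. Other genes of the luminal and receptor lists were expressed, with means of 2330 to 2572 for KRT18, 402 to 588 for GATA3 and 2496 to 2833 for ERBB2 in the authors' deposited tables. Of 5 blood markers PTPRC and CD14 were listed, and CD3E and HBB were among those that were not, with summed means of 47.5 to 155. Of 4 endothelial markers 2 or 3 were listed per table (summed means 582 to 1985) and CDH5 in none. KDR rose by 2.34 ± 0.20 and 2.92 ± 0.14 with the knockdown (adjusted p 2.17e-30 and 2.46e-88) and PTPRC fell by 2.21 ± 0.40 and 3.00 ± 0.27 (adjusted p 4.96e-07 and 5.00e-27) in the authors' deposited tables. The part of these markers in the members' values was not tested, and fewer cells of a kind and less RNA per cell cannot be told apart in bulk RNA.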

How the data were processed

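RNA of 12 SUM159 libraries was sequenced as single-end reads of 50 bases from a stranded mRNA kit, per the labels. Per the submitters' processing notes, the authors used Bowtie2 2.2.9 and TopHat2 2.1.1 with the build GRCh38.p7, HTSeq 0.9.0, and DESeq2 1.14.1 in R 3.4.0, besides bcl2fastq and FastQC. Not given in the sources used here are the annotation release, the filters, the design formula and whether counting used the strand. A table of counts holds 12 columns whose names match no label, and none was used here, so no depth, level or spread per library was computed.

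Each of the 4 tables deposited by the authors gives the mean of normalized counts, a signal over the libraries compared. It also gives, per the file headers, a log2 fold change, the standard error (SE) of that log2 value, a Wald score, a p-value and its Benjamini-Hochberg adjusted p-value. The deposited log2 fold changes of low genes are moderated towards 0 as far as the values show. With no count per library, precision is given by the SE.

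A gene was called at an adjusted p under 0.05 over all genes of a table. Members were INHBA, INHBB, INHBE, FST, FSTL3, ACVR1, ACVR1B, ACVR2A and ACVR2B, and other genes were named as the 2 to 4 called genes of a list with the largest absolute change, apart from genes that are not reported here. Members and lists were chosen with earlier results of these data known. The gemcitabine effect in shE4F1 cells and the interaction were derived as differences of deposited log2 fold changes, with SEs from summed variances, a two-sided normal test and Benjamini-Hochberg adjustment over 21080 and 20923 genes, in Python 3.11.15 with numpy 2.4.6, pandas 2.3.3, scipy 1.17.1 and matplotlib 3.10.9. The derivation was tested on simulated data. The simulation drew independent normal errors from the same SEs that the test uses. It thus checked the computation, and could not check the SEs or the effect of shared libraries. Group levels were implied by the mean and fold change of a table, with equal weight for both groups. Intervals are 95% normal intervals from the SE. Coordinates and exon lengths came from GENCODE 29 and promoters from RefSeq (GRCh38.p14). The alternatives tried were an adjusted p under 0.01, an absolute log2 change of at least 1, a mean of at least 50, centring on the median and the sum or difference of other tables.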

Additional observations from a re-analysis of the deposited data

Results flagged for a closer look

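The knockdown effect under gemcitabine differed from that in untreated cells for several genes. For INHBA the difference was -3.97 and for INHBE 2.92 on the log2 scale. Both were selected on this difference, so it was not tested for them. INHBA was higher with the knockdown in untreated cells and lower under gemcitabine, whereas INHBE was lower in both conditions, by less under gemcitabine. Among the other pathway genes a two-sided normal test of the difference, with Benjamini-Hochberg adjustment over 20923 genes, made calls that include BAMBI at -1.47, SMAD3 at -0.84, NEDD9 at -0.74, SMURF2 at 0.66, SKI at 0.90 and ZFYVE9 at 0.95. NEDD9, a scaffold protein, rose by 0.85 ± 0.13 in untreated cells in the authors' deposited table (adjusted p 5.23e-09) and stood at 0.10 ± 0.12 under gemcitabine (adjusted p 0.526). SKI stood at 0.13 ± 0.14 untreated (adjusted p 0.510) and rose by 1.03 ± 0.13 under gemcitabine in the authors' deposited table (adjusted p 1.64e-14).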

How the results depend on the processing

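Over the 5 tested members and 6 comparisons, 127 of 145 alternative values kept their direction and their side of the threshold, 13 lost a call and 5 changed sign. The changes of sign were all in ACVR1B, which was called nowhere: -0.017 for gemcitabine in shCTRL cells from the other tables, 0.020 (centred) and 0.012 (other tables) for gemcitabine in shE4F1 cells, and -0.073 (centred) and -0.014 (other tables) for the interaction. Requiring an absolute log2 change of at least 1 left 0 of the 5 members called in the untreated knockdown table, 2 under gemcitabine, 0 in the drug table and 1 in the combined table. It left 2637, 3048, 1738 and 2371 genes called in these tables in turn, and 462 for the interaction. An adjusted p under 0.01 left 145 genes for gemcitabine in shE4F1 cells and 601 for the interaction. Taken from the other tables, the calls over all genes were 3642 for the knockdown under gemcitabine, 3028 for gemcitabine in shCTRL cells, 142 for gemcitabine in shE4F1 cells and 130 for the interaction. This route adds the variances of tables that share libraries, and its SEs are larger by construction. By the same route INHBA stood at -1.19 for the knockdown under gemcitabine and 5.63 for gemcitabine in shCTRL cells, and for INHBA the sum of the gemcitabine knockdown and drug tables fell 0.37 short of the combined table, against a median absolute gap of 0.024 over all genes. Of the interaction calls on other pathway genes, BAMBI (-1.45, adjusted p 0.389), SMAD3 (-0.84, 0.270), SMURF2 (0.61, 0.599), NEDD9 (-0.76, 0.161), SKI (0.87, 0.0814) and ZFYVE9 (0.91, 0.0843) were not made by it. The calls on TGFBR2 (-0.67, adjusted p 0.110) and CTGF (-1.10, 0.0915) with gemcitabine in shE4F1 cells were not made either, nor, among other named genes, those on ACVR1C (adjusted p 0.113) and ID1 (adjusted p 0.0991) with gemcitabine in shCTRL cells. Fits with edgeR and leaving out single libraries were not run, since no count column could be tied to a sample. No paired analysis was possible because the deposited tables carry no replicate numbers and the count columns match no label.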
